A study of Mus musculus with 9 samples.

Results

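The genes described here encode the digestive enzymes of the lysosome, the activator proteins that present substrates to them, the proteins of its membrane and the proteins that sort new enzymes to it. A fixed list of 53 such genes was used, and those with a mean of at least 0.5 FPKM (fragments per unit of gene length and of library size) over all libraries were tested. Of the 53, 51 passed this minimum, among 13990 tested genes and 20287 gene IDs in all. RNA-seq covered the strain 129 line E14, which consists of embryonic stem cells of the mouse, either knockout (KO) for Hbxip, which is now called Lamtor5, or wild type (WT). The 3 cultures were the pluripotent one, day 4 of LIF withdrawal (96 h without this cytokine, which keeps such cells undifferentiated), and embryoid bodies, in which the cells aggregate and start to differentiate. Every culture gave 2 KO libraries and 1 WT library, so that 9 libraries formed 6 groups. The labels name no further allele or agent and leave unsaid whether the KO libraries are clones or separate cultures. The p-values therefore measure only the spread between these libraries, and a culture's only WT library was taken to have the spread of the KO pairs.

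Lysosomal hydrolases are made in the endoplasmic reticulum, receive mannose 6-phosphate tags in the Golgi and are carried to acidic compartments, where they break down proteins, glycans, lipids and nucleic acids. Many of their genes carry an E-box-like motif, the CLEAR element, in the promoter, which is bound by TFEB, TFE3 and MITF. Ragulator, the complex that contains the HBXIP protein, anchors the Rag GTPases on the lysosomal surface, and these recruit both mTORC1 and the TFEB family there.

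Library totals lay between 10147277 and 10863845 rounded counts, at which 3 counts are worth 0.276 to 0.296 CPM. Hbxip, the targeted gene, was at 31.0 and 29.1 FPKM in KO pluripotent cells against 40.7 FPKM in WT, and the difference was not called (adjusted p = 0.0971). Its level was 16.2 and 15.5 FPKM in KO against 38.5 FPKM in WT after LIF withdrawal, and 23.0 and 18.3 FPKM in KO against 41.8 FPKM in WT in embryoid bodies, and it fell in KO in both. Reads of the gene remained in every KO library, so the genotype is taken from the labels. The stem cell marker Pou5f1 was at 648 to 895 FPKM throughout. The summed share of 10 such markers was 0.808% to 0.882% of the FPKM total in KO pluripotent cells and 1.085% in WT. It lay between 0.835% and 1.044% in the other libraries. Dppa5a, at 1565 to 2604 FPKM, made up the largest part of these sums. Of the 10, 6 were lower and 1 higher in KO pluripotent cells, beside 26.3% and 25.5% of all tested genes. Klf4 was at 85.6 and 90.5 FPKM there against 154.7 FPKM in WT, and Lin28a at 42.9 and 47.2 FPKM against 90.7 FPKM. After LIF withdrawal 5 were higher and 1 lower (18.4% and 17.5% of all genes), and in embryoid bodies 5 and 2 (19.4% and 17.8%). Klf4 in KO stood above WT in both, at 60.3 and 58.0 FPKM against 21.1 FPKM, and at 51.7 and 41.6 FPKM against 17.3 FPKM. Esrrb was at 230 and 215 FPKM in KO pluripotent cells against 186 FPKM in WT. It was at 182 and 172 FPKM against 69.5 FPKM after LIF withdrawal, and at 217 and 207 FPKM against 64.5 FPKM in embryoid bodies. Markers of other cell types moved with the genotype, and their part in the results was not tested. The summed share of 12 macrophage and blood cell markers was 0.0063% to 0.0320% in KO libraries and 0.0017% to 0.0109% in WT, nearly all of it Laptm5, which encodes a lysosomal protein of blood cells. Of these markers 3 were tested, and Laptm5 and Spi1 were higher in KO pluripotent cells, where 25.5% of all tested genes were higher. Spi1, a transcription factor of myeloid and B cells, was at 11.7 and 10.8 FPKM in KO against 0.9 FPKM in WT there (log2 fold change 3.75 ± 0.39, adjusted p = 8.41e-06). The genes Ptprc, Csf1r, Adgre1, Lyz2, Aif1 and Tyrobp were at 0.22 FPKM or less throughout. The summed share of 16 markers of the extraembryonic endoderm was 0.0739% to 0.225% in KO and 0.0229% to 0.0602% in WT, mostly from Apoe (11 tested, 5 higher and 4 lower in KO pluripotent cells), with Ttr, Afp and Apoa1 at 0.49 FPKM or less. The 10 fibroblast markers summed to 0.0054% to 0.0138% in KO and 0.0107% to 0.0135% in WT.

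The lysosomal genes of the list, summed, took a larger share of the RNA in KO cells in all 3 cultures. The 53 genes together made up 0.468% and 0.449% of the FPKM total in KO pluripotent cells, against 0.241% in WT. After LIF withdrawal they took 0.378% and 0.390% in KO and 0.266% in WT, and in embryoid bodies 0.465% and 0.451% in KO and 0.260% in WT. Both KO libraries lay above the WT library each time, and the mean KO share was 1.9, 1.44 and 1.76 times the WT share. For the sorting and tagging genes alone it was 0.857, 0.934 and 1.09 times the WT share. A share of bulk RNA cannot tell more cells with the transcript from more transcript per cell.

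**Figure D1:**
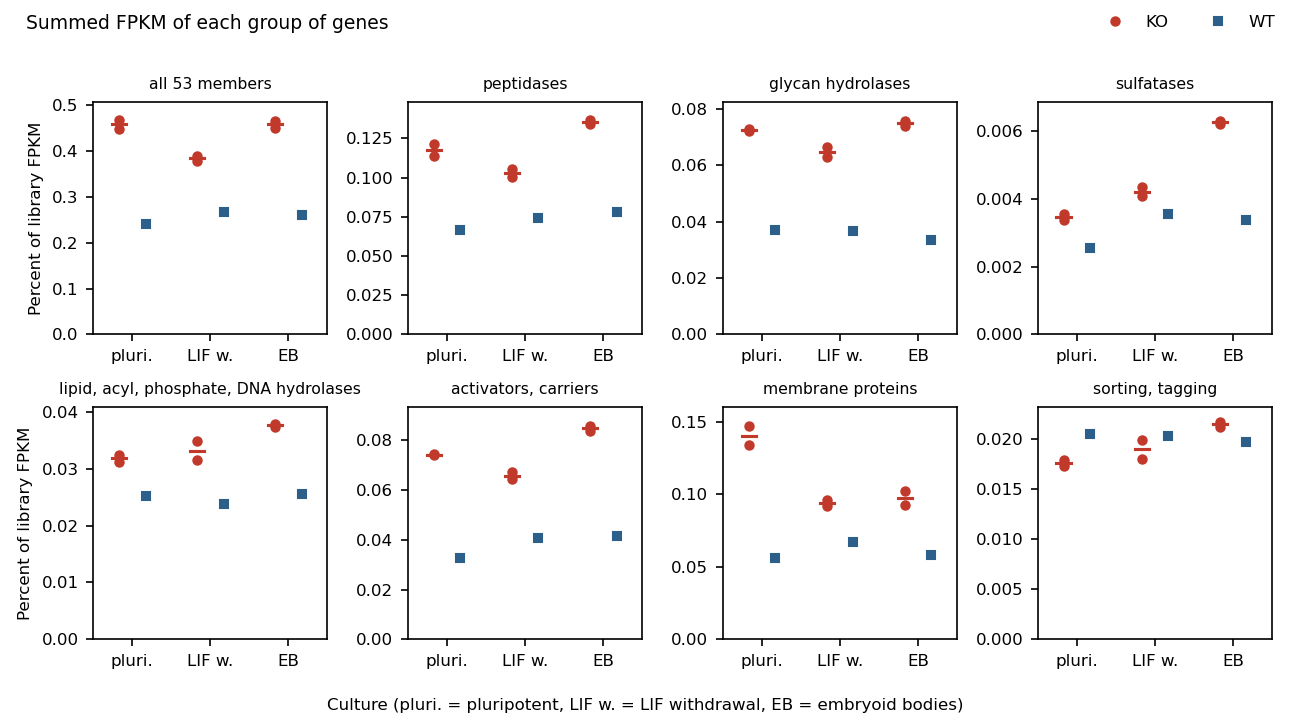
Summed FPKM as a percentage of the library's FPKM total (y axis, from 0) in each culture (x axis) for all 53 genes and for each role group, with KO libraries as circles with their mean as a line and the WT library as a square. All 53 genes together lie at 0.378% to 0.468% in KO and 0.241% to 0.266% in WT, and the sorting and tagging genes lie below WT in KO pluripotent cells, at 0.0173% and 0.0179% in KO against 0.0206% in WT.

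The question of the genotype comparison was which genes differed between the libraries labelled Hbxip KO and those labelled WT in a given culture, tested with edgeR's quasi-likelihood test and Benjamini-Hochberg adjustment over all 13990 genes. A gene was called where its adjusted p was below 0.05. In pluripotent culture 28 of the 51 lysosomal genes were higher in KO and 9 were lower, where 25.5% and 26.3% of all tested genes were called in these directions. The median log2 fold change of the 51 was 0.64, beside -0.01 over all genes. After LIF withdrawal 24 were higher and 4 lower, against 18.4% and 17.5% of all genes, with a median of 0.30 beside 0.00. In embryoid bodies 26 were higher and 4 lower, against 19.4% and 17.8%, with a median of 0.39 beside 0.00. Over the 3 cultures in an additive fit 21 were higher and 2 lower, against 13.3% and 13.8%, with a median of 0.33 beside -0.02. With upper-quartile scaling the all-gene median moved to -0.12 in pluripotent culture, and higher genes made up 39.5% of all calls there in place of 49.3%, and 38.6% in place of 49.1% over the 3 cultures. The lysosomal genes counted 28 higher and 10 lower in pluripotent culture and 21 higher and 3 lower over the cultures under that scaling.

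The same 21 genes were higher in KO in each of the 3 cultures, a pattern found for 6.92% of all tested genes. They were the peptidase genes Ctsa, Ctsb, Ctsd, Ctsl and Tpp1, the glycan hydrolase genes Hexa, Glb1, Gaa, Idua and Manba, the sulfatase gene Arsa, and Asah1, Ppt1 and Dnase2a, which act on ceramide, palmitoylated proteins and DNA. With them came the activator and carrier genes Psap, Gm2a, Npc2 and Grn and the membrane protein genes Lamp1, Cd63 and Cd68. A further 8 were called in no culture (29.4% of all tested genes), namely Gla, Gusb, Naglu, Ids, Smpd1, Acp5, Lamp2 and M6pr. Calls in pluripotent culture and in no other were made for Galns, Cln3, Hgsnat and Gnptg, which were higher, and for Aga, Arsb, Pla2g15, Gnptab and Sort1, which were lower. A call in 1 culture and not in another is no test of the difference between them, which is given for the named genes with the responses.

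**Figure D2:**
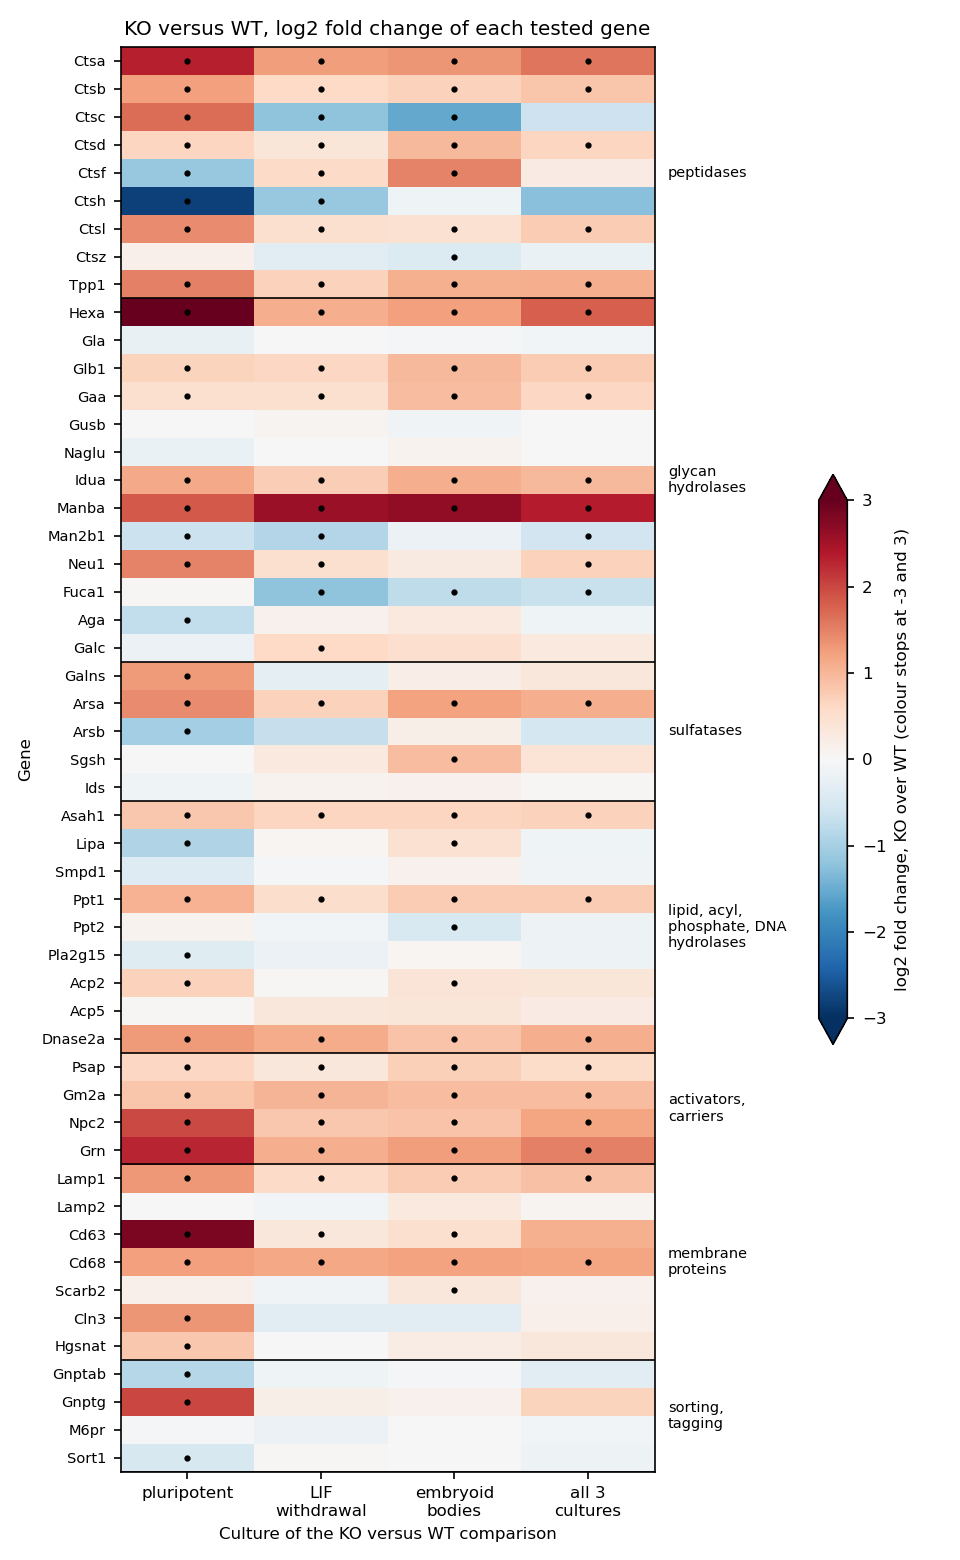
Log2 fold change of KO over WT (colour, limits -3 and 3) for the 51 tested genes (y axis, by role group) in each culture and over all 3 cultures (x axis), where a dot marks an adjusted p below 0.05. Dots on red run through all 4 columns for genes such as Manba and Grn, while Ctsc, Ctsf and Lipa change colour between cultures.

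Promoter sequence is given for members that differ in the E-box hexamer CACGTG, the core of the CLEAR element, which reads the same on both strands. RefSeq windows of 300 bases, from 250 before to 50 after the annotated start (build GRCm38.p6), were available for 45 of the 53 genes. Where a gene had several annotated starts, a match in any of its windows counted, in all genes alike. The window with the most hexamers was the one placed and shown, as for Ctsa, Cln3 and Gnptg with 2 starts each. The hexamer was found in 13 of the 45 (28.9%), beside 8.09% of 27025 genes with such a window and 11.8% of 10929 tested ones. The longer TCACGTG, searched on both strands and counted as a match that contains the hexamer, was in 11 (24.4%, beside 4.29% and 7.02%), and TCACGTGA in 5 (11.1%, beside 1.12% and 2.15%). Of the 13 genes with the hexamer, 9 were higher and 1 lower in KO pluripotent cells, with a median log2 fold change of 0.67. Of the 30 tested genes without it 15 were higher and 5 lower, with a median of 0.39, where 25.5% and 26.3% of all tested genes were called. After LIF withdrawal the counts were 8 higher and 0 lower of 13 (median 0.47) and 14 higher and 3 lower of 30 (median 0.22), beside 18.4% and 17.5% of all genes. In embryoid bodies the counts were 9 higher and 0 lower of 13 with the hexamer (median 0.93) and 15 higher and 4 lower of 30 without (median 0.38), beside 19.4% and 17.8%. The difference between genes with and without the hexamer was not tested. A match is a description of the letters and no evidence of binding. The 7 windows shown run from 160 bases before the start to 20 bases from it, in the direction of the gene, with capitals for each CACGTG. All 7 belong to genes called higher in KO pluripotent cells. Of the hexamer genes not shown, Ctsf was called lower there, and Gla, Naglu and Sgsh were not called there. Ctsa (chr2:164833613-164833792, plus strand) has it 12 bases before the start and 6 bases into the gene, Lamp1 (chr8:13159001-13159180, plus strand) holds it 4 times within 61 bases of the start, and Arsa (chr15:89477405-89477584, minus strand) has it 16 bases before the start. Cln3 (chr7:126583217-126583396, minus strand) and Gnptg (chr17:25240121-25240300, minus strand) carry it and were called higher in KO in pluripotent culture and not in the others. Hexa (chr9:59539380-59539559, plus strand) and Cd63 (chr10:128909185-128909364, plus strand) had the largest increases in pluripotent culture and hold no such hexamer in the window.
Ctsa: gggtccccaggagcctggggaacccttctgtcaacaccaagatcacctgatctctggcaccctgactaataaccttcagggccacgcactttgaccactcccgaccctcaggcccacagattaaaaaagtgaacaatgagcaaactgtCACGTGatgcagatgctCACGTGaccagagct
Lamp1: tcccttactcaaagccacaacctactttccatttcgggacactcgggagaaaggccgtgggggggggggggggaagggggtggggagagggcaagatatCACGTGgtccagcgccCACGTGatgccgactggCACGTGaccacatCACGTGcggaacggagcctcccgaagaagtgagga
Arsa: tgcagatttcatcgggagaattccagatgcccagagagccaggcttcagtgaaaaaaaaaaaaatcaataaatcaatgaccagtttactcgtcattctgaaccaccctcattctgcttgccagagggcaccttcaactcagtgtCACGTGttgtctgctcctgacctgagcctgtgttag
Cln3: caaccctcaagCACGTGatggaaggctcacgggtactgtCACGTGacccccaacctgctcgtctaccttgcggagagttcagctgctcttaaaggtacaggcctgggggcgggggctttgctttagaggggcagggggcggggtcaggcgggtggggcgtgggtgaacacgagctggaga
Gnptg: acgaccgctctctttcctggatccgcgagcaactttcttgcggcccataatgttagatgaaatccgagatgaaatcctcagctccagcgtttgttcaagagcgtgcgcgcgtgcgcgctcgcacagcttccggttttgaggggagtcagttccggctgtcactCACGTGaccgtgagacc
Hexa: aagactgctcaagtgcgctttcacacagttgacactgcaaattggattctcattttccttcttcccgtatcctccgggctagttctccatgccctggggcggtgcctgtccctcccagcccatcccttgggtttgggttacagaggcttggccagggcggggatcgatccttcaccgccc
Cd63: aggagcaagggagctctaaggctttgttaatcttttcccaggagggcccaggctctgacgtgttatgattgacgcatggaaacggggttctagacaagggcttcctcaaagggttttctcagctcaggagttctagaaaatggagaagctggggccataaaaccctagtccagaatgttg

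**Figure D3:**
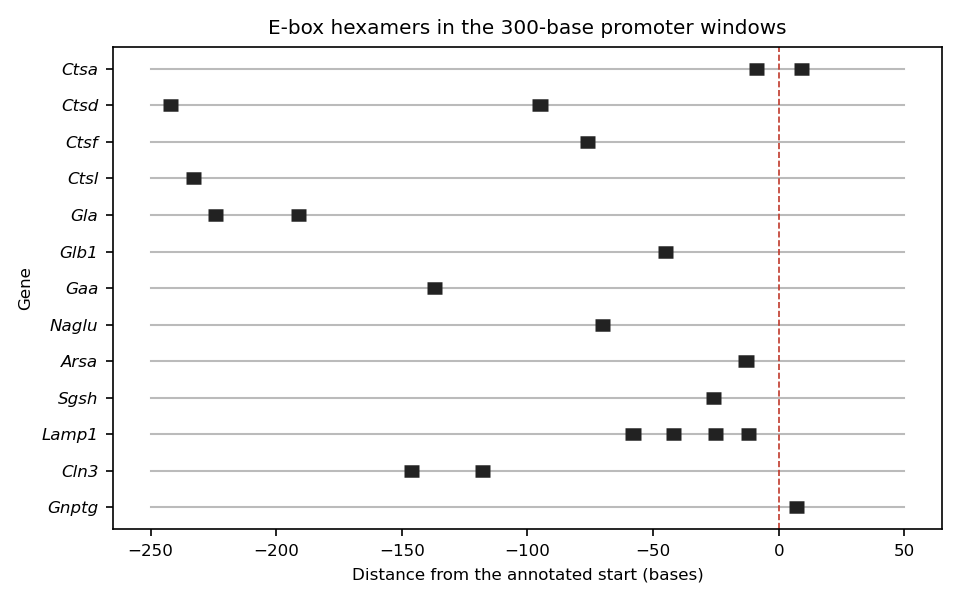
Position of each CACGTG (black blocks) in the promoter windows of the 13 genes that contain it (y axis), as distance from the annotated start in bases (x axis, the start as a dashed line). Lamp1 holds 4 between 61 and 15 bases before the start, while those of Ctsl and Gla lie more than 190 bases before it.

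Among the peptidases, 6 of 9 tested genes were higher and 2 lower in KO pluripotent cells. The split was the same in the other cultures, with partly other genes on either side. Over all genes the shares were 25.5% and 26.3% in pluripotent culture, 18.4% and 17.5% after LIF withdrawal, and 19.4% and 17.8% in embryoid bodies. Ctsa encodes cathepsin A, a carboxypeptidase that also protects the sialidase Neu1 and the beta-galactosidase Glb1 in a complex. It was at 127 and 127 FPKM in KO pluripotent cells against 27.3 FPKM in WT. LIF withdrawal gave 62.9 and 65.2 FPKM in KO against 27.8 FPKM in WT, and embryoid bodies 100.3 and 98.4 FPKM in KO against 39.5 FPKM in WT. The KO pairs lay close together and above WT in each culture, with log2 fold changes of 2.34 ± 0.09, 1.26 ± 0.09 and 1.32 ± 0.09 (adjusted p = 8.55e-09, 6.49e-07 and 4.33e-07). Of its annotated exon bases 22.3% also belong to its neighbours Pltp and Neurl2, and Pltp was at 129 and 138 FPKM in KO pluripotent cells against 45.4 FPKM in WT, so that reads in the shared part cannot be assigned. Tpp1, the tripeptidyl peptidase lost in a neuronal ceroid lipofuscinosis, was at 47.0 and 47.5 FPKM in KO pluripotent cells against 18.1 FPKM in WT. Its levels were 41.8 and 37.5 FPKM in KO against 25.4 FPKM in WT after LIF withdrawal, and 48.6 and 44.8 FPKM in KO against 22.4 FPKM in WT in embryoid bodies. It was higher in KO in each, by 1.51 ± 0.11, 0.70 ± 0.10 and 1.06 ± 0.11 (adjusted p = 5.64e-07, 0.000234 and 1.21e-05). Ctsb, Ctsd and Ctsl, the general endopeptidases cathepsin B, D and L, were higher by 1.23, 0.64 and 1.42 in pluripotent culture and by 0.36 to 0.97 in the others.

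Ctsc, Ctsf and Ctsh differed between cultures in direction or size. Ctsc, the dipeptidyl peptidase that activates granule proteases, was at 6.68 and 5.51 FPKM in KO pluripotent cells against 2.06 FPKM in WT. In the LIF withdrawal culture it was at 1.30 and 2.08 FPKM in KO against 4 FPKM in WT, and in embryoid bodies at 6.42 and 6.76 FPKM in KO against 19.5 FPKM in WT. It was thus higher in KO pluripotent cells (log2 fold change 1.67 ± 0.20, adjusted p = 2.86e-05) and lower in KO in the other cultures (-1.20 ± 0.20 and -1.54 ± 0.15, adjusted p = 0.000593 and 9.48e-06). The value over the 3 cultures was -0.62 (adjusted p = 0.403), and it was called at -1.41 without the WT pluripotent library. Ctsf, cathepsin F, went the other way and was named after its values were seen. It was at 3.37 and 4.38 FPKM in KO pluripotent cells against 9.27 FPKM in WT. The other cultures had 14.7 and 15.4 FPKM in KO against 10.5 FPKM in WT after LIF withdrawal, and 16.1 and 16.4 FPKM in KO against 5.77 FPKM in WT in embryoid bodies. Its log2 fold changes were -1.13 ± 0.17, 0.58 ± 0.15 and 1.49 ± 0.17 (adjusted p = 0.000179, 0.0107 and 3.04e-05), and the KO pair stood apart from WT in each culture. The call after LIF withdrawal was lost with DESeq2 and with limma on log2(FPKM + 0.1) (0.52). Ctsh, an aminopeptidase, was at 0.25 and 0.48 FPKM in KO pluripotent cells against 2.79 FPKM in WT. After LIF withdrawal it was at 1.10 and 1.27 FPKM in KO against 2.61 FPKM in WT, and in embryoid bodies at 3.30 and 3.02 FPKM in KO against 3.45 FPKM in WT. It fell by 2.81 on the log2 scale in KO pluripotent cells (SE 0.42, adjusted p = 0.00016). Its fall of 1.13 after LIF withdrawal (adjusted p = 0.0254) was not called without the first KO library there (-1.02), with DESeq2 or with limma on log2(FPKM + 0.1) (-1.08). In embryoid bodies it was not called (-0.13, adjusted p = 0.766). Ctsz, cathepsin X, was lower in KO embryoid bodies (-0.40) and not called after LIF withdrawal (-0.31, adjusted p = 0.0589) or in pluripotent culture (0.15), and Ctso and Ctss were below the minimum level, at means of 0.089 and 0.0711 FPKM.

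Among the 13 glycan hydrolase genes, 6 were higher and 2 lower in KO pluripotent cells (25.5% and 26.3% of all tested genes). After LIF withdrawal 7 were higher and 2 lower (18.4% and 17.5%), and in embryoid bodies 5 were higher and 1 lower (19.4% and 17.8%). Hexa, the alpha subunit of beta-hexosaminidase that is lost in Tay-Sachs disease, was at 129 and 117 FPKM in KO pluripotent cells against 10.3 FPKM in WT. LIF withdrawal gave 63.6 and 60.5 FPKM in KO against 30.5 FPKM in WT, and embryoid bodies 81.8 and 77.2 FPKM in KO against 34.1 FPKM in WT. Every KO library exceeded every WT library, and WT pluripotent cells had the lowest level of all. The log2 fold changes were 3.70 ± 0.13, 1.09 ± 0.11 and 1.22 ± 0.11 (adjusted p = 5.71e-09, 1.24e-05 and 5.18e-06). Manba, the enzyme that cleaves the beta-linked mannose of the N-glycan core, was at 129 and 139 FPKM in KO pluripotent cells against 40.4 FPKM in WT. Its levels were 105 and 115 FPKM in KO against 19.3 FPKM in WT after LIF withdrawal, and 125 and 123 FPKM in KO against 19.4 FPKM in WT in embryoid bodies. KO levels stayed within a narrow range over the cultures, and the differences were 1.85 ± 0.09, 2.58 ± 0.10 and 2.67 ± 0.10 (adjusted p = 3.42e-08, 8.41e-09 and 6.55e-09). Over the 3 cultures Manba was higher by 2.35 ± 0.16 (adjusted p = 7.28e-05), the largest such value among the 51 genes.

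Neu1, the sialidase that works in the complex with cathepsin A, was at 7.57 and 7.63 FPKM in KO pluripotent cells against 2.97 FPKM in WT. In the LIF withdrawal culture it was at 5.71 and 6.20 FPKM in KO against 4.42 FPKM in WT, and in embryoid bodies at 9.96 and 10.8 FPKM in KO against 8.6 FPKM in WT. It was higher in KO pluripotent cells by 1.48 ± 0.15 (adjusted p = 7.53e-06) and after LIF withdrawal by 0.49 ± 0.14 (adjusted p = 0.0175). The latter call was lost with DESeq2 and without the second KO library there (0.45). In embryoid bodies Neu1 was not called (0.26, adjusted p = 0.126). Glb1, the beta-galactosidase of the same complex, was higher by 0.67, 0.63 and 0.97 in the 3 cultures, and Gaa, which breaks down glycogen, by 0.47, 0.47 and 0.93. Idua, which cleaves iduronic acid from heparan and dermatan sulfate, was low, at 2.37 and 3.13 FPKM in KO pluripotent cells against 1.37 FPKM in WT. The other cultures had 1.97 and 2.51 FPKM in KO against 1.41 FPKM in WT after LIF withdrawal, and 2.89 and 3.11 FPKM in KO against 1.40 FPKM in WT in embryoid bodies. KO exceeded WT by 1.14 ± 0.24, 0.73 ± 0.24 and 1.09 ± 0.24 (adjusted p = 0.00163, 0.0317 and 0.0033). The call after LIF withdrawal was lost with upper-quartile scaling (0.67), with DESeq2, without the second KO library of that culture (0.56) and without either KO library of embryoid bodies (0.73). It was also lost with limma on log2(FPKM + 1) (0.42) and on log2(FPKM + 0.1) (0.62).

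Man2b1 and Fuca1, which remove mannose and fucose from glycoproteins, were lower in KO. Man2b1 was at 13.7 and 13.2 FPKM in KO pluripotent cells against 22.9 FPKM in WT. After LIF withdrawal it was at 14.6 and 14.5 FPKM in KO against 28.0 FPKM in WT, and in embryoid bodies at 17.4 and 16.0 FPKM in KO against 18.8 FPKM in WT. It fell by 0.65 ± 0.09 and 0.89 ± 0.09 in the pluripotent and LIF withdrawal cultures (adjusted p = 0.000129 and 1.43e-05) and gave -0.18 in embryoid bodies (adjusted p = 0.16). Fuca1 was at 10.8 and 10.8 FPKM in KO pluripotent cells against 11.4 FPKM in WT. LIF withdrawal gave 7.27 and 7.35 FPKM in KO against 17.5 FPKM in WT, and embryoid bodies 10.1 and 9.31 FPKM in KO against 16.4 FPKM in WT. It was not called in pluripotent culture (0.04, adjusted p = 0.82) and fell by 1.20 ± 0.13 and 0.76 ± 0.12 in the others (adjusted p = 1.55e-05 and 0.000512). Both were lower over the 3 cultures (-0.58 in Man2b1, adjusted p = 0.00831, and -0.67 in Fuca1, adjusted p = 0.0323). Neither call held without the WT LIF withdrawal library (-0.42 and -0.38), and that of Fuca1 was also lost without the WT embryoid body library (-0.62), without either KO library of LIF withdrawal (-0.60 each) or either of embryoid bodies (-0.67 and -0.64), and with the replicate block (-0.67, adjusted p = 0.0564). Aga was lower in KO pluripotent cells (-0.74) and not called in the other cultures (0.14 and 0.29). Galc was higher after LIF withdrawal (0.60, adjusted p = 0.0404), was not called at a similar size in embryoid bodies (0.50, adjusted p = 0.0714), and gave -0.18 in pluripotent culture. No call was made for Gla, Gusb and Naglu.

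**Figure D4:**
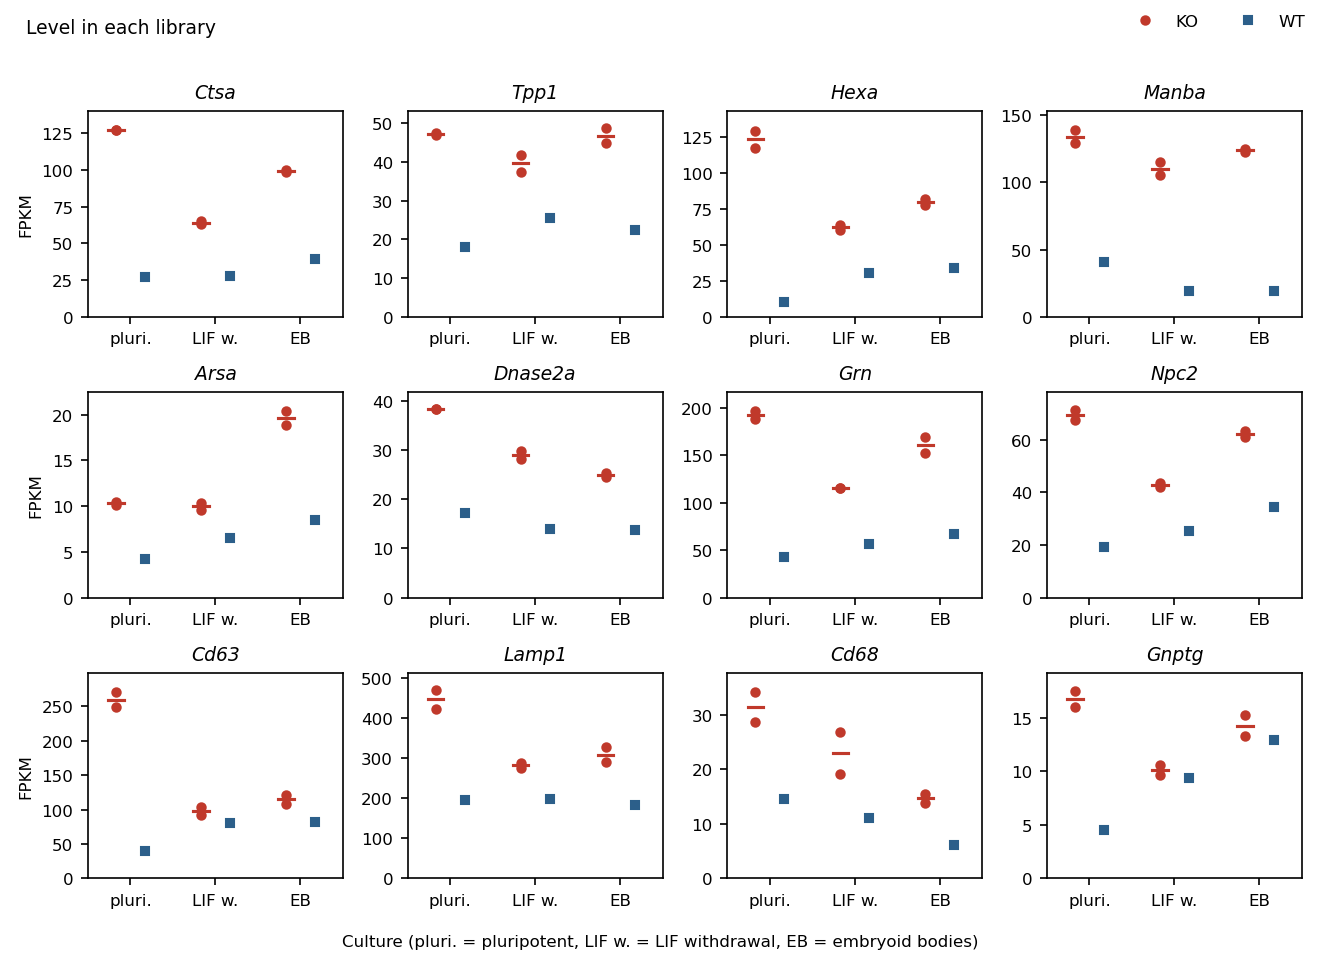
FPKM (y axis, linear, from 0) in each culture (x axis) for 12 genes that were higher in KO pluripotent cells, with KO libraries as circles, their mean as a line and the WT library as a square. Hexa and Cd63 are at their lowest in WT pluripotent cells, at 10.3 and 40.2 FPKM, and the WT squares of Gnptg close on the KO circles in the other cultures.

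The sulfatases are activated by a shared modification in the endoplasmic reticulum. Of the 5 genes, 2 were higher and 1 lower in KO pluripotent cells, beside 25.5% and 26.3% of all tested genes. Arsa, which desulfates sulfatide, was at 10.1 and 10.5 FPKM in KO pluripotent cells against 4.18 FPKM in WT. Its levels were 10.3 and 9.61 FPKM in KO against 6.50 FPKM in WT after LIF withdrawal, and 20.4 and 18.9 FPKM in KO against 8.48 FPKM in WT in embryoid bodies. KO was higher by 1.42 ± 0.14, 0.68 ± 0.13 and 1.21 ± 0.12 (adjusted p = 4.55e-06, 0.0012 and 9.72e-06), with each KO pair above its WT library. Galns, which acts on keratan sulfate, was at 3.02 and 3.51 FPKM in KO pluripotent cells against 1.45 FPKM in WT. In the LIF withdrawal culture it was at 2.11 and 2.61 FPKM in KO against 3.03 FPKM in WT, and in embryoid bodies at 2.58 and 2.79 FPKM in KO against 2.34 FPKM in WT. Only the pluripotent difference was called (1.28 ± 0.26, adjusted p = 0.00145). Arsb, which acts on dermatan sulfate, was at 0.48 and 0.46 FPKM in KO pluripotent cells against 1.05 FPKM in WT. The other cultures had 1.09 and 1.72 FPKM in KO against 2.36 FPKM in WT after LIF withdrawal, and 1.40 and 1.31 FPKM in KO against 1.19 FPKM in WT in embryoid bodies. Its fall of 1.03 ± 0.36 in KO pluripotent cells (adjusted p = 0.0282) was lost without either KO library of that culture (-1.07 and -0.98). That call was also lost with DESeq2 (-1.03) and with limma on log2(FPKM + 1) (-0.48). The value of Arsb after LIF withdrawal (-0.69, adjusted p = 0.0638) was called without the second KO library there (-1.04) and with the replicate block (-0.70, adjusted p = 0.0388). Sgsh, a heparan sulfate sulfamidase, was higher in KO embryoid bodies (0.93 ± 0.24, adjusted p = 0.00958) and not called in pluripotent culture (0.00) or after LIF withdrawal (0.30). Its genotype difference in the embryoid body response was not called (0.93 ± 0.36, adjusted p = 0.0561), and Ids was not called in any culture.

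Of the 9 genes for enzymes acting on lipids, acyl groups, phosphates or DNA, 4 were higher and 2 lower in KO pluripotent cells. There 25.5% and 26.3% of all tested genes were called. After LIF withdrawal 3 were higher (18.4% of all genes), and in embryoid bodies 5 were higher and 1 lower (19.4% and 17.8%). Dnase2a, the acid endonuclease that degrades engulfed DNA, was at 38.3 and 38.3 FPKM in KO pluripotent cells against 17.2 FPKM in WT. After LIF withdrawal it was at 28.1 and 29.9 FPKM in KO against 13.9 FPKM in WT, and in embryoid bodies at 24.6 and 25.3 FPKM in KO against 13.7 FPKM in WT. The KO pairs stood well clear of WT, by 1.28 ± 0.11, 1.12 ± 0.11 and 0.86 ± 0.12 (adjusted p = 2.09e-06, 1.22e-05 and 0.00012). Ppt1, a thioesterase that removes palmitate from proteins, was at 27.0 and 27.2 FPKM in KO pluripotent cells against 14.3 FPKM in WT. LIF withdrawal gave 25.0 and 24.7 FPKM in KO against 17.9 FPKM in WT, and embryoid bodies 30.2 and 31.0 FPKM in KO against 18.0 FPKM in WT. KO exceeded WT by 1.04 ± 0.10, 0.53 ± 0.10 and 0.76 ± 0.10 (adjusted p = 5.29e-06, 0.00112 and 8.3e-05), and the related Ppt2 was lower in KO embryoid bodies (-0.46). Asah1, acid ceramidase, was at 61.2 and 60.2 FPKM in KO pluripotent cells against 38.0 FPKM in WT. Its levels were 49.8 and 54.4 FPKM in KO against 34.6 FPKM in WT after LIF withdrawal, and 75.9 and 72.5 FPKM in KO against 47.5 FPKM in WT in embryoid bodies. Its differences were close in size, at 0.80 ± 0.09, 0.65 ± 0.09 and 0.64 ± 0.09 (adjusted p = 2.06e-05, 0.000184 and 0.000167).

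Lipa, the acid lipase that hydrolyses cholesteryl esters and triglycerides, was lower in KO pluripotent cells, at 2.28 and 2.39 FPKM against 4.74 FPKM in WT (log2 fold change -0.90 ± 0.19, adjusted p = 0.00204). It was at 4.32 and 5.46 FPKM in KO against 4.88 FPKM in WT after LIF withdrawal, where the KO libraries lay on either side of WT. In embryoid bodies it was at 9.73 and 10.9 FPKM in KO against 7.48 FPKM in WT, and its call there (0.46 ± 0.16, adjusted p = 0.0429) was lost with upper-quartile scaling (0.40), with DESeq2, without the first or second KO library of that culture (0.54 and 0.37) and without either KO pluripotent library (0.46). That call was also lost with limma on log2(FPKM + 1) (0.41) and on log2(FPKM + 0.1) (0.46). Pla2g15, a phospholipase, was lower in KO pluripotent cells (-0.36), Acp2, an acid phosphatase, was higher in pluripotent cells and embryoid bodies (0.69 and 0.39), and Smpd1 and Acp5 were not called in any culture.

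All 4 activator and carrier genes were higher in KO in each culture, as were 6.92% of all tested genes. Grn, whose product progranulin is cleaved to granulins in the lysosome, was at 197 and 188 FPKM in KO pluripotent cells against 42.8 FPKM in WT. In the LIF withdrawal culture it was at 115 and 115 FPKM in KO against 56.6 FPKM in WT, and in embryoid bodies at 169 and 152 FPKM in KO against 67.1 FPKM in WT. Its log2 fold changes were 2.29 ± 0.10, 1.09 ± 0.10 and 1.25 ± 0.10 (adjusted p = 2.24e-08, 4.45e-06 and 1.58e-06), and the lowest KO library was above the highest WT library. Npc2, which hands cholesterol to the membrane transporter NPC1, was at 67.5 and 71.1 FPKM in KO pluripotent cells against 19.0 FPKM in WT. The other cultures had 43.4 and 42.0 FPKM in KO against 25.4 FPKM in WT after LIF withdrawal, and 61.1 and 63.3 FPKM in KO against 34.3 FPKM in WT in embryoid bodies. It was higher by 1.99 ± 0.10, 0.81 ± 0.09 and 0.85 ± 0.09 (adjusted p = 3.23e-08, 2.5e-05 and 1.5e-05). Gm2a, the activator that presents GM2 ganglioside to hexosaminidase A, was at 13.2 and 16.1 FPKM in KO pluripotent cells against 8.97 FPKM in WT. After LIF withdrawal it was at 12.9 and 15.4 FPKM in KO against 7.23 FPKM in WT, and in embryoid bodies at 17.9 and 17.6 FPKM in KO against 9.30 FPKM in WT. Its differences of 0.83, 1.03 and 0.93 (adjusted p = 0.000234, 9.02e-05 and 0.000158) varied less between cultures than those of Grn and Npc2 did. Psap, the precursor of the saposins, was at 132 and 131 FPKM in KO pluripotent cells against 91.8 FPKM in WT. LIF withdrawal gave 133 and 137 FPKM in KO against 111 FPKM in WT, and embryoid bodies 184 and 184 FPKM in KO against 113 FPKM in WT. KO was higher by 0.63, 0.35 and 0.71 (adjusted p = 5.48e-05, 0.00521 and 3.38e-05).

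Of the 7 membrane protein genes, 5 were higher in KO pluripotent cells, 3 after LIF withdrawal and 4 in embryoid bodies, and none was lower. Of all tested genes 25.5%, 18.4% and 19.4% were higher and 26.3%, 17.5% and 17.8% lower in these cultures. Cd63, a tetraspanin of late endosomes and exosomes, was at 271 and 249 FPKM in KO pluripotent cells against 40.2 FPKM in WT. Its levels were 103 and 92.3 FPKM in KO against 80.3 FPKM in WT after LIF withdrawal, and 121 and 109 FPKM in KO against 81.4 FPKM in WT in embryoid bodies. It was higher by 2.82 ± 0.13 in pluripotent culture (adjusted p = 2.74e-08) and by 0.49 ± 0.12 in embryoid bodies (adjusted p = 0.00602). Its call after LIF withdrawal (0.35 ± 0.12, adjusted p = 0.0377) was lost with upper-quartile scaling (0.29), with DESeq2 and without the first KO library there (0.25). Cd63 also lost that call with limma on log2(FPKM + 1) and on log2(FPKM + 0.1) (0.28 each). Over the 3 cultures its value was 1.06 (adjusted p = 0.0871), and without the WT pluripotent library it was called at 0.42. Lamp1, the main glycoprotein of the lysosomal membrane, was the most abundant member, at 471 and 425 FPKM in KO pluripotent cells against 196 FPKM in WT. In the LIF withdrawal culture it was at 289 and 277 FPKM in KO against 199 FPKM in WT, and in embryoid bodies at 328 and 291 FPKM in KO against 182 FPKM in WT. WT cells held nearly the same level in the 3 cultures, and KO was higher by 1.31 ± 0.11, 0.57 ± 0.11 and 0.76 ± 0.11 (adjusted p = 1.68e-06, 0.00128 and 0.000167). Lamp2, its relative that also serves chaperone-mediated autophagy, was not called in any culture, at 21.8 and 20.8 FPKM in KO embryoid bodies against 16.0 FPKM in WT.

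Cd68, a sialomucin used as a macrophage marker, was at 34.2 and 28.6 FPKM in KO pluripotent cells against 14.6 FPKM in WT. The other cultures had 26.8 and 19.2 FPKM in KO against 11.1 FPKM in WT after LIF withdrawal, and 15.5 and 13.9 FPKM in KO against 6.19 FPKM in WT in embryoid bodies. The gene was higher in KO by 1.22 ± 0.21, 1.15 ± 0.22 and 1.21 ± 0.26 (adjusted p = 0.000462, 0.00168 and 0.00284). Beside it, Laptm5 of the blood cell marker list was at 163 and 140 FPKM in KO pluripotent cells against 51.5 FPKM in WT and Spi1 at 11.7 and 10.8 FPKM in KO against 0.9 FPKM in WT, while Ptprc and Csf1r stayed at 0.22 FPKM or less. Cln3, a membrane protein lost in juvenile ceroid lipofuscinosis, was at 11.7 and 10.8 FPKM in KO pluripotent cells against 5 FPKM in WT. After LIF withdrawal it was at 7.47 and 6.22 FPKM in KO against 9.09 FPKM in WT, and in embryoid bodies at 8.78 and 8.58 FPKM in KO against 10.9 FPKM in WT. It was called in pluripotent culture (1.32 ± 0.18, adjusted p = 6.6e-05) and not in the others (-0.32 each, adjusted p = 0.159 and 0.143). Hgsnat, an acetyltransferase for heparan sulfate, was higher in KO pluripotent cells (0.80 ± 0.20), and Scarb2, a membrane glycoprotein, in KO embryoid bodies (0.35 ± 0.10).

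Of the 4 genes for tagging and sorting new hydrolases, 1 was higher and 2 lower in KO pluripotent cells. There 25.5% and 26.3% of all tested genes were called in these directions. None of the 4 was called in the other cultures. Gnptab and Gnptg encode subunits of the phosphotransferase that makes the mannose 6-phosphate tag, Gnptab the catalytic ones. Gnptg was at 16.0 and 17.5 FPKM in KO pluripotent cells against 4.56 FPKM in WT. LIF withdrawal gave 9.68 and 10.6 FPKM in KO against 9.34 FPKM in WT, and embryoid bodies 13.3 and 15.2 FPKM in KO against 12.9 FPKM in WT. It was higher by 2.0 ± 0.20 in pluripotent culture (adjusted p = 5.64e-06), but 49.5% of its exon bases are shared with Unkl, which was at 9.19 and 8.01 FPKM in KO pluripotent cells against 5.43 FPKM in WT. Gnptab was at 4.71 and 5.70 FPKM in KO pluripotent cells against 10.2 FPKM in WT. Its levels were 9.11 and 10.6 FPKM in KO against 11.3 FPKM in WT after LIF withdrawal, and 8.93 and 10.7 FPKM in KO against 10.2 FPKM in WT in embryoid bodies. The subunit genes thus differed in opposite directions in pluripotent culture, where Gnptab fell by 0.85 ± 0.14 (adjusted p = 0.000315). Sort1, the sorting receptor sortilin, was at 4.21 and 4.59 FPKM in KO pluripotent cells against 6.62 FPKM in WT, and at 9.91 to 11.1 FPKM in KO against 10.5 and 10.5 FPKM in WT in the other cultures. It fell by 0.47 ± 0.11 in pluripotent culture (adjusted p = 0.00354), and M6pr, the cation-dependent mannose 6-phosphate receptor, was not called in any culture.

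**Figure D5:**
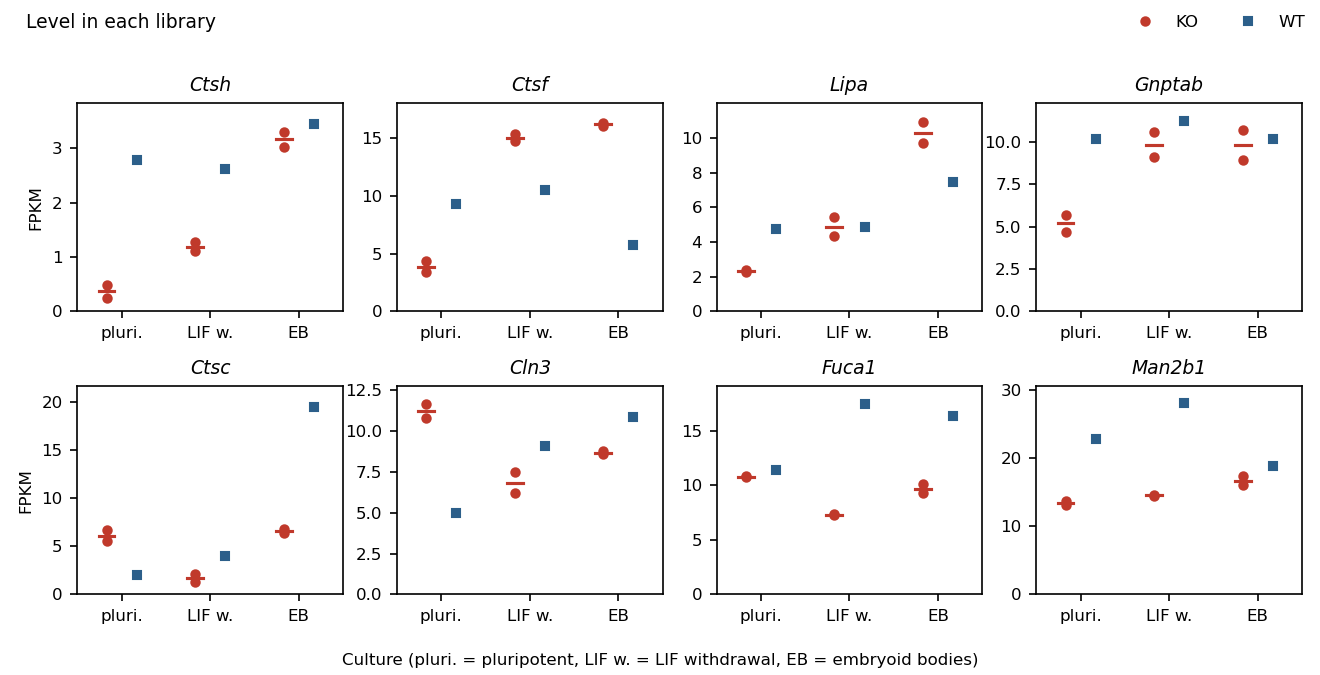
FPKM (y axis, linear, from 0) in each culture (x axis) for 8 genes, with KO libraries as circles, their mean as a line and the WT library as a square. All but Cln3 were called lower in KO in some culture. Cln3 was called higher in pluripotent culture and lay below WT in the others without a call. Ctsc and Ctsf cross between pluripotent culture and embryoid bodies in opposite ways, and Ctsh in KO climbs to 3.30 and 3.02 FPKM in embryoid bodies, beside 3.45 FPKM in WT.

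The response to each culture was compared within a genotype. These comparisons share the pluripotent libraries with each other and with the genotype comparison, so they are not independent of it. In KO cells 10 of the 51 genes were higher and 24 lower after LIF withdrawal than in pluripotent culture (30.2% and 29% of all genes), with a median log2 fold change of -0.24 beside 0.00. In WT cells 16 were higher and 2 lower (11.6% and 8.9%), with a median of 0.17 beside 0.00. Embryoid bodies against pluripotent culture gave 20 higher and 15 lower in KO cells (31% and 30%, median 0.04 beside 0.01) and 21 higher and 8 lower in WT cells (19.7% and 18.9%, median 0.22 beside 0.01). Calls in WT rest on 1 library per culture, so counts of KO and WT cannot be set against each other as effect sizes.

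The test of the difference between the genotypes' responses was called lower in KO for 19 genes and higher for 7 with LIF withdrawal (14.9% and 17.5% of all genes), and lower for 17 and higher for 9 with embryoid bodies (19.5% and 22.4%). The medians were -0.19 beside 0.02 over all genes and -0.01 beside 0.04. Hexa fell in KO cells by 1.02 ± 0.08 with LIF withdrawal and rose in WT cells by 1.59 ± 0.15, a difference of -2.61 ± 0.17 (adjusted p = 1.5e-06). Cd63 had the same form, with -1.45 ± 0.09 in KO and 1.02 ± 0.15 in WT and a difference of -2.47 ± 0.17 (adjusted p = 2.63e-06). Gnptg fell by 0.76 in KO and rose by 1.06 in WT, a difference of -1.82 ± 0.27 (adjusted p = 0.000386). In these 3 genes the KO and WT levels stood closer together after LIF withdrawal than in pluripotent culture.

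Ctsc in embryoid bodies was at the pluripotent level in KO cells (0.00, adjusted p = 0.98) and higher by 3.22 ± 0.21 in WT cells, the largest rise of a member in WT, and the difference was -3.21 ± 0.25 (adjusted p = 3.91e-06). Ctsh was higher by 3.0 ± 0.37 in KO embryoid bodies than in KO pluripotent cells and gave 0.33 in WT (adjusted p = 0.503), a difference of 2.67 ± 0.53 (adjusted p = 0.00187). Ctsf rose by 1.92 and 1.96 in KO cells with LIF withdrawal and in embryoid bodies, and in WT cells gave 0.21 (adjusted p = 0.465) and -0.66 (adjusted p = 0.0184). Lipa was higher in KO embryoid bodies by 2.03 ± 0.15 and in WT by 0.68 ± 0.20, a difference of 1.35 ± 0.25 (adjusted p = 0.00124). Manba fell by 1.04 ± 0.10 in WT cells both with LIF withdrawal and in embryoid bodies and by 0.31 and 0.22 in KO cells, giving differences of 0.72 and 0.82 (adjusted p = 0.00101 and 0.00032). Cd68 was lower in embryoid bodies than in pluripotent culture in both genotypes, by 1.20 in KO and by 1.19 in WT.

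Further lysosomal enzyme and tagging genes, listed apart from the 53, were counted in the same fits, and 28 of 30 were tested. In KO pluripotent cells 14 were higher and 3 lower (median 0.37), beside 25.5% and 26.3% of all tested genes. After LIF withdrawal the counts were 11 and 6 (median 0.23), beside 18.4% and 17.5%. In embryoid bodies they were 17 and 1 (median 0.49), beside 19.4% and 17.8%. The mean KO share of the 30 genes summed was 1.21, 1.14 and 1.47 times the WT share in these cultures. Dpp7, a dipeptidyl peptidase, was at 36.7 and 36.6 FPKM in KO pluripotent cells against 8.77 FPKM in WT (log2 fold change 2.19 ± 0.13, adjusted p = 1.3e-07). Glmp, a glycosylated membrane protein, was at 126 and 116 FPKM in KO against 46.2 FPKM in WT (1.51 ± 0.12). Hyal1, a hyaluronidase, went the other way, at 1.07 and 1.87 FPKM in KO pluripotent cells against 3.68 FPKM in WT (-1.22 ± 0.32, adjusted p = 0.00711).

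Of the TFEB family and folliculin genes, 6 of 7 were tested. In KO pluripotent cells 3 were higher and 1 lower, beside 25.5% and 26.3% of all tested genes. The counts were 2 and 1 after LIF withdrawal (18.4% and 17.5%) and 5 and 1 in embryoid bodies (19.4% and 17.8%). Tfeb was at 32.7 and 25.4 FPKM in KO pluripotent cells against 19.6 FPKM in WT, and was higher by 0.70, 0.81 and 0.65 in the 3 cultures (adjusted p = 0.0037, 0.0139 and 0.0299). Tfe3 was lower throughout, at 14.9 and 16.7 FPKM in KO pluripotent cells against 28.3 FPKM in WT, by -0.75, -0.92 and -0.79 (adjusted p = 4.92e-05, 1.15e-05 and 3.28e-05). Fnip2, a partner of folliculin, was at 19.5 and 19.0 FPKM in KO pluripotent cells against 7.91 FPKM in WT (1.40 ± 0.10, adjusted p = 5.83e-07). Mitf was higher in KO embryoid bodies (1.04, adjusted p = 0.00514), at 2.86 and 2.75 FPKM in KO against 1.31 FPKM in WT. These are transcript levels, and the location and activity of the proteins were not measured.

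Part of the exon bases of further members also belongs to other annotated genes, by 59.7% in Arsb, 43.1% in Ppt2, 31.5% in Ctsd, 28.2% in Ctsl, 21.9% in Sgsh, 19.8% in Arsa, 16.3% in Ctsb, 13.3% in Acp2 and 13.2% in Cln3. Strandedness is not given in the sources used here, so reads in those bases cannot be assigned to 1 gene.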

How the data were processed

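The deposited gene tables of 9 libraries give expected counts and FPKM per gene as made by the authors, with the gene length used, per the file headers. Bowtie2 and build mm8 are named in the submitters' processing notes, while the quantifier, strandedness and annotation version are not given in the sources used here. Expected counts deposited by the authors were rounded and tested with edgeR 4.0.16 (quasi-likelihood, TMM scaling, Benjamini-Hochberg adjustment, R 4.3.3) over the 13990 genes whose mean FPKM reached 0.5, an unlisted gene counting as 0. A gene was called below an adjusted p of 0.05. Values in one culture, responses and their differences came from a fit of 6 groups, and values over the 3 cultures from a fit with culture and genotype. A standard error is the absolute log2 fold change divided by the square root of the F statistic. FPKM values, deposited by the authors, give levels and were also tested with limma 3.58.1 on log2(FPKM + 1) and log2(FPKM + 0.1), and DESeq2 1.42.0 was a further alternative. Of 20287 IDs, 20234 matched a gene name by gene ID, 9 by RefSeq accession and 44 did not match. Library totals of 10147277 to 10863845 limit the precision for genes of few counts. The members and lists were chosen with earlier results of these data known. Per role group, up to 4 members with the largest log2 fold change called in pluripotent culture or over the cultures are given library by library, where the KO pluripotent libraries both lay above or both below WT and the mean FPKM was at least 1. Man2b1 and Fuca1, which went the other way, and Ctsf were added after their values were seen. Up to 4 genes of each other list were named in the same order, and an item withheld from the text is not reported here. Promoter windows came from RefSeq tables of GRCm38.p6, a build other than that of the counts, and shared exon bases from an annotation of the same later build. On simulated counts for the 13990 genes, the pluripotent genotype test recovered 48.0% of 1.5-fold, 86.0% of 2-fold and 100.0% of 4-fold increases. There 50 genes were changed by each fold, 13790 were unchanged, and all genes and both genotypes had the same spread. In the data far more genes were called and the spread of WT is unknown, so these percentages do not give the power of the test there.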

Additional observations from a re-analysis of the deposited data

Results flagged for a closer look

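The following differences between the genotypes' responses passed the test of the difference itself (edgeR's quasi-likelihood test), given as the log2 response in KO minus that in WT, with LIF withdrawal first and embryoid bodies after it. All share the pluripotent libraries. The response was lower in KO than in WT for Ctsa (-1.08 and -1.02), Ctsc (-2.88 and -3.21), Tpp1 (-0.80 and -0.45), Hexa (-2.61 and -2.48), Neu1 (-0.99 and -1.22), Galns (-1.58 and -1.09), Grn (-1.21 and -1.04), Npc2 (-1.18 and -1.14), Cd63 (-2.47 and -2.32), Cln3 (-1.64 and -1.64), Lamp1 (-0.75 and -0.55), Fuca1 (-1.24 and -0.80) and Gnptg (-1.82 and -1.85). For Arsa (-0.75) and Ppt1 (-0.51) it was lower with LIF withdrawal. The response was higher in KO than in WT for Ctsh (1.68 and 2.67), Ctsf (1.72 and 2.62), Manba (0.72 and 0.82), Lipa (0.96 and 1.35), Gnptab (0.72 and 0.80) and Sort1 (0.51 and 0.47), and for Man2b1 with embryoid bodies (0.47).

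Some of these calls rested on 1 library or on the test used. Without the first KO pluripotent library those of Ctsh (1.27), Gnptab (0.60) and Sort1 (0.47) with LIF withdrawal and of Tpp1 (-0.44) and Sort1 (0.43) with embryoid bodies were lost. That of Galns with embryoid bodies was lost without the second KO pluripotent library (-0.98) and without either KO library of embryoid bodies (-1.03 and -1.14). The call of Ctsh with LIF withdrawal was also lost without the second KO library of that culture (1.55) and without either KO embryoid body library (1.68). Without the second KO embryoid body library, Tpp1 (-0.39) and Sort1 (0.39) were lost with embryoid bodies, and without the first that of Man2b1 (0.41). DESeq2 made no call for Ctsh, Arsa, Galns, Ppt1, Lipa, Gnptab and Sort1 with LIF withdrawal. With embryoid bodies it made none for Tpp1, Galns, Sort1, Man2b1 and Fuca1. Both limma settings lost the calls of Ctsh, Gnptab and Sort1 with LIF withdrawal and of Tpp1, Galns and Lamp1 with embryoid bodies.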

How the results depend on the processing

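Alternatives were run for 174 values of 29 members described library by library, and no called value among them reversed its direction. With DESeq2 19 of these lost their call and 2 gained one, with limma on log2(FPKM + 1) 10 lost and 1 gained, and with upper-quartile scaling 3 lost and 1 gained. The number of the 51 genes called over the 3 cultures was 23, and 36 (29 higher, 7 lower) with the mean of the within-culture contrasts. With DESeq2 the called responses in WT numbered 9 in place of 18 for LIF withdrawal and 17 in place of 29 for embryoid bodies, and the response differences 16 and 17 in place of 26 each. The cause was not tested. Embryoid bodies against pluripotent culture in KO cells gave 23 higher and 9 lower with limma on log2(FPKM + 1), and the response difference for embryoid bodies 13 and 13 there and 12 and 12 with log2(FPKM + 0.1). Without 1 library at a time, the genotype calls ranged from 35 to 37 in pluripotent culture, 26 to 28 after LIF withdrawal, 26 to 30 in embryoid bodies and 21 to 29 over the cultures. The response calls ranged from 26 to 33 and 24 to 35 in KO, 17 to 19 and 28 to 30 in WT, and 22 to 26 and 21 to 28 for the differences, each with LIF withdrawal given before embryoid bodies. Leaving out the WT library of a culture leaves no test there. With the replicate block the counts were 37, 30 and 32 in the 3 cultures, 21 over them, 35 and 37 for KO responses, 25 and 31 for WT responses and 29 and 29 for the differences. The KO libraries' deviations correlated across genes by 0.343, 0.104 and 0.128 between cultures, but only KO libraries carry a second number and no label ties the numbers. With the block the calls of Neu1 (0.70, adjusted p = 0.0589) and Fuca1 over the 3 cultures were lost. Calls were gained there for Arsb (-0.70) after LIF withdrawal and for the response differences of Arsb (1.21) and Dnase2a (-0.42) with embryoid bodies and Psap (-0.28) with LIF withdrawal. The call of Neu1 over the cultures was also lost without either KO pluripotent library, the WT or either KO LIF withdrawal library, or the second KO embryoid body library (0.65 to 0.80, adjusted p = 0.0519 to 0.0716). Without the WT pluripotent library no genotype test exists for pluripotent culture, and depth limits the genes below about 1 FPKM, such as Arsb.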

Other observations

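The gene length that the authors' tables give for Lamp2, which has several transcript forms, differed between libraries. It was 2819 and 2950 bases in KO pluripotent cells against 3213 bases in WT, 2774 and 2893 bases in KO against 3009 bases in WT after LIF withdrawal, and 2804 and 2824 bases in KO against 3022 bases in WT in embryoid bodies. Both KO libraries lay below the WT library each time. Lamp2 was picked after these values were seen, and no test was made.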
